A study of Mus musculus with 20 samples.

Results

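The genes described here supply and build major histocompatibility complex (MHC) class I molecules, and 9 were chosen by name: B2m, H2-K1, H2-D1, H2-Q10, Tap1, Tap2, Tapbp, Psmb8 and Psmb9. They are 9 of 8251 genes with a symbol of their own on the MG-U74A array, represented by 16 of its 12422 probe sets that are not controls, taken as all those whose single gene symbol in the platform annotation is one of these names. Of the 16 probe sets, 14 passed a filter on low signal and were tested, and each of the 9 genes kept at least 1. Where a gene had several, the probe set with the highest mean signal stood for it.

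Whole prostates came from C57/B6 mice aged 10 to 12 weeks, in 4 groups of 5 arrays. One group was sham-treated (N3 in the labels, which do not spell out the code). The next was castrated and killed 3 days later, and the third was killed 14 days after castration. In the fourth, mice castrated 14 days before received a testosterone pellet of 15 mg and were killed 3 days after the implant, so these mice had been castrated for longer than the 14-day group. The labels name no transgene or deletion. Among the source names only those of the sham group state the strain. The design gives 5 mice a group without tying an array to a mouse, and p-values measure the spread between arrays.

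Class I molecules carry short peptides from inside the cell to its surface, where CD8 T cells read them. Each consists of a heavy chain encoded in the H2 region and the shared light chain beta-2-microglobulin, and it leaves the endoplasmic reticulum only once a peptide is bound. The peptides are cut by the proteasome, in which interferon gamma exchanges catalytic subunits for those of the immunoproteasome. They are pumped into the endoplasmic reticulum by a transporter of paired subunits and loaded with the help of tapasin. Castration removes the main source of testosterone, after which the prostate shrinks and takes up leukocytes, and testosterone starts its regrowth.

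All values are MAS5 signals, brightness on a linear scale that the depositors' software set to 1 trimmed mean per array (500.21 to 500.32). Changes are differences of log2(signal + 12.7), with standard errors (SE), and a gene was called at an adjusted p below 0.05 from limma with Benjamini-Hochberg adjustment over the 6913 probe sets tested. The tissue was checked by Pbsn, which encodes the prostate secretory protein probasin and averaged 16904 in sham, 15179 and 4903 at 3 and 14 days of castration and 10013 after testosterone. On 4 arrays (14 days of castration, replicates 4 and 5; testosterone, replicates 2 and 5) the log2 ratio of the 3′ to the 5′ Gapdh control was 1.82 to 4.54. On the other 16 it was -0.53 to -0.08. For the probe sets that stood for the genes chosen by name, and for ratios between these genes, each call that changed without these 4 arrays is given beside its value. Other genes, other probe sets, summed marker signals and correlations were not checked in this way. Because whole tissue was hybridised, a changed number of cells of one type and a changed amount of RNA per cell cannot be told apart.

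H2-K1 and H2-D1 encode the classical heavy chains that present peptides in this strain. H2-K1 measured 8505, 9844, 9114, 8756 and 8780 on the sham arrays and 8935, 9634, 9364, 8631 and 8188 at 3 days of castration. It measured 11947, 11199, 9381, 13303 and 11744 at 14 days and 13395, 14419, 11675, 11138 and 12938 after testosterone. The first 2 groups overlapped, 14 days overlapped sham only through its lowest array, and every testosterone array lay above every sham array. H2-K1 was called higher at 14 days than in sham (log2 change 0.35 ± 0.09 (SE), adjusted p = 0.00453) and higher after testosterone than in sham (0.49 ± 0.09 (SE), adjusted p = 0.000268). At 3 days the change was -0.01 ± 0.09 (SE) and no call was made.

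H2-D1 measured 6607, 7604, 6950, 6700 and 7565 in sham and 7774, 7147, 7583, 6666 and 6949 at 3 days. At 14 days it measured 9817, 9452, 7991, 10781 and 9831, and after testosterone 11213, 10311, 9904, 9854 and 9511. Both later groups lay wholly above sham and above 3 days, and they overlapped each other. The log2 change was 0.43 ± 0.08 (SE) at 14 days against sham (adjusted p = 0.000312) and 0.52 ± 0.08 (SE) after testosterone against sham (adjusted p = 5.56e-05). Between 14 days and testosterone neither H2-K1 (0.15 ± 0.09 (SE), adjusted p = 0.224) nor H2-D1 (0.09 ± 0.08 (SE), adjusted p = 0.408) was called. With each array centred on its median, both were called higher there, by 0.34 (adjusted p = 0.0423) and 0.29 (adjusted p = 0.0450), while quantile normalization gave -0.03 and -0.16 without a call.

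B2m encodes the light chain common to all of these molecules and did not follow the heavy chains. It measured 13932, 13978, 14161, 17264 and 13712 in sham and 12272, 11761, 12819, 13390 and 11259 at 3 days. At 14 days it measured 10751, 11847, 8249, 11934 and 13371, and after testosterone 14086, 13322, 12290, 15031 and 13247. All 10 castrated arrays without testosterone lay below all 5 sham arrays, and the testosterone arrays overlapped both sham and 14 days. B2m fell by 0.39 ± 0.11 (SE) on the log2 scale at 14 days against sham (adjusted p = 0.00571). At 3 days the change was -0.25 ± 0.11 (SE) with an adjusted p of 0.151.

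After testosterone B2m was called higher than at 14 days, with a log2 change of 0.29 ± 0.11 (SE) (adjusted p = 0.0381). That call ended in 8 of 29 alternative analyses, among them the one without replicate 3 of the 14-day group, B2m's lowest array, where the change was 0.18 (adjusted p = 0.123). The others were quantile normalization, no filter, a fit of the compared groups alone, and leaving out replicate 1 of the 14-day group or replicate 1, 4 or 5 of the testosterone group. Their adjusted p-values ran up to 0.197. Against sham, the testosterone group differed by -0.10 ± 0.11 (SE), which was not called.

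H2-Q10 encodes a class I heavy chain that is secreted rather than held in the membrane, and it is best known as a product of the liver. It measured 1034, 1125, 1035, 933 and 842 in sham, then 261, 339, 260, 383 and 285 at 3 days. It measured 267, 290, 250, 161 and 218 at 14 days and 1709, 1430, 2253, 2079 and 1658 after testosterone. Sham, the castrated groups and the testosterone group were 3 separate bands, with the highest band after testosterone, and the castrated groups overlapped each other. At 14 days the mean was 237 ± 50 (SD, n = 5) against 994 ± 109 (SD, n = 5) in sham.

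On the log2 scale H2-Q10 fell by 1.67 ± 0.15 (SE) at 3 days (adjusted p = 1.95e-06) and fell by 2.03 ± 0.15 (SE) at 14 days (adjusted p = 3.50e-09), both against sham. Between 3 and 14 days it differed by -0.36 ± 0.15 (SE) (adjusted p = 0.0685). From 14 days to testosterone it rose 7.39-fold, by 2.89 ± 0.15 (SE) (adjusted p = 5.13e-11). The level after testosterone was 1.81-fold that in sham (log2 change 0.86 ± 0.15 (SE), adjusted p = 0.000139). No other member left the range of sham on both sides in this way.

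Markers of other tissues were read beside H2-Q10. Of 4 liver genes on the array none passed the filter, their summed signal was 123 to 290 over the 20 arrays, and the albumin gene Alb averaged 75.2 to 116 by group, with no array at 0. Seminal vesicle secretory genes, from the gland next to the prostate, summed over 4 genes to 49365 to 61971 in sham, 41766 to 58538 at 3 days, 3169 to 32149 at 14 days and 40468 to 52168 after testosterone. None of these 4 was called at 3 days, when H2-Q10 had fallen, and all 4 were called lower at 14 days. Smooth muscle markers, 6 of 6 tested, summed to 25684 to 31237 in sham, 19160 to 27102 at 3 days, 16123 to 21140 at 14 days and 36808 to 39858 after testosterone, so that the testosterone arrays lay above all sham arrays, as for H2-Q10. Of these 6, 2 were lower at 3 days and 4 at 14 days against sham, and 5 were higher after testosterone than at 14 days. The shares of all probe sets in these directions were 4.46%, 24.3% and 18.2%. Skeletal muscle markers varied widely. Over 6 genes they summed to 2594 to 12066 in sham, 973 to 2918 at 3 days, 1561 to 18075 at 14 days and 10958 to 22440 after testosterone. Over 3 adipocyte genes the sums were 497 to 1242, 475 to 1538, 1428 to 2318 and 361 to 754 in the same order. The part of all these tissue markers in the changes of H2-Q10 and B2m was not tested.

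**Figure D1:**
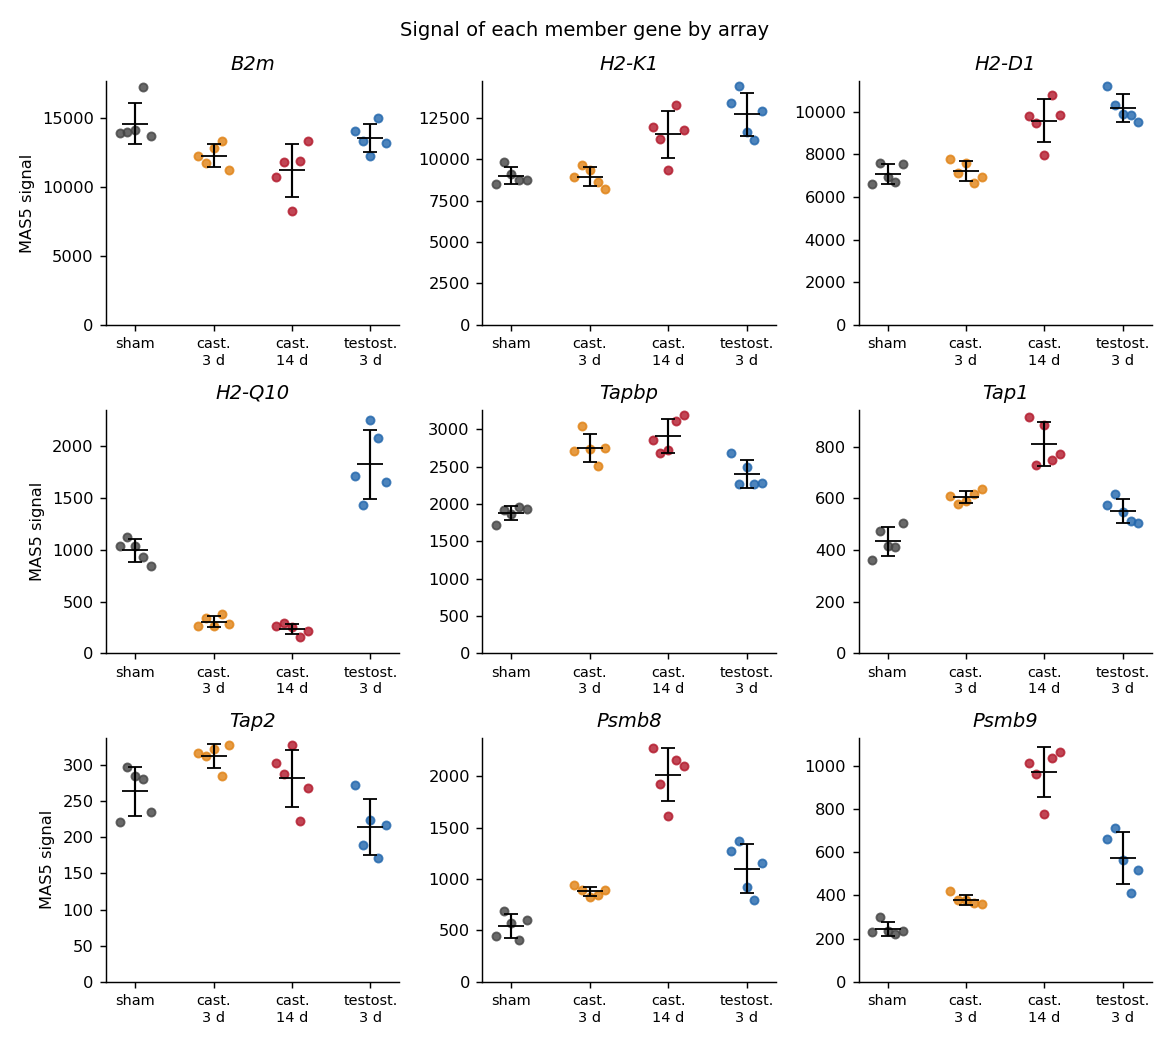
MAS5 signal (linear axis from 0) of the 9 genes, 1 point per array, by group (sham, castrated for 3 days, castrated for 14 days, castrated and then given testosterone for 3 days), with bars for the mean and SD of 5 arrays. H2-Q10 lies at 842 to 1125 in sham, at 161 to 383 in the castrated groups and at 1430 to 2253 after testosterone, while Psmb8 and Psmb9 are highest at 14 days.

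Stretches just before the transcription start are shown because they carry the elements by which class I genes are known to be controlled, an enhancer that binds NF-kappa B and an element that binds interferon regulatory factors. They come from RefSeq (build GRCm38.p6), which held 8 of the 9 members. Capitals in the heavy chain sequences mark, from left to right, the kappa B site GGGATTCCC or the letters in its place, the interferon element TTTCACTTC and, where found, the site alpha core TGACGC. In B2m they mark an interferon-stimulated element core GAAANNGAA.
H2-K1, chr17:34000355-34000484, minus strand: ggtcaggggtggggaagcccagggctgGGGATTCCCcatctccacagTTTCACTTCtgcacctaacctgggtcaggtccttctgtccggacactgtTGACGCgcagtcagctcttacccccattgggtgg
H2-D1, chr17:35262897-35263026, plus strand: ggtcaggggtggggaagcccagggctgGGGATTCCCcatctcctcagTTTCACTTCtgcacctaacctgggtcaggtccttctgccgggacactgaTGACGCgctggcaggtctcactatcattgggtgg
H2-Q10, chr17:35469887-35470016, plus strand: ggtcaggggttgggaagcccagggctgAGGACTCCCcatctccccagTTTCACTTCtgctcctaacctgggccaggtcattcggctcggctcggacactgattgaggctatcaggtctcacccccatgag
B2m, chr2:122147503-122147632, plus strand: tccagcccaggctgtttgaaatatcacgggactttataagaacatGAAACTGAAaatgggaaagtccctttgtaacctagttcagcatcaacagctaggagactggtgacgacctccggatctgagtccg

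H2-K1 and H2-D1 held an identical kappa B site, and over 87 aligned bases around the interferon element they were identical at 84. H2-Q10 matched each of them at 77 of the 87. It held the same interferon element, but at the kappa B site it differed by the substitutions G1A and T5C, counted from the first base of GGGATTCCC. It held no TGACGC within 250 bases of its start. B2m held neither GGGATTCCC nor TTTCACTTC, and of the 8 members it alone held GAAANNGAA. Only the letters given were searched, so other forms of a kappa B site, in B2m or elsewhere, were not examined.

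For comparison, 32851 RefSeq promoters were searched on both strands over the 250 bases before the start. A gene with several starts could count more than once there, while each member was searched at a single start. The kappa B site GGGATTCCC occurred in 0.301% of the promoters, TTTCACTTC in 0.402%, TGACGC in 6.12% and GAAANNGAA in 7.13%. The interferon gamma activated site TTCNNNGAA occurred in 7.02% and, among the members, in Psmb8. The CCAAT box occurred in 33.8% and in 6 of the 8 members, where the matches of Tap1 and Psmb9 are the same site between their starts. The androgen receptor half-site TGTTCT occurred in 16.1% and, among the members, in B2m, just before GAAANNGAA and on the opposite strand. No match in a member overlapped a match to another motif. These are matches of letters, and neither binding nor a link to the changes in signal was tested.

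The different course of the chains was measured within arrays, as the difference of their log2 signals on the same array. B2m and H2-Q10 were set against the heavy chains with earlier results of these data known. The p-values of the ratios therefore measure the spread between arrays and give no independent support for that split. The ratio of B2m to H2-K1 fell by 0.74 on the log2 scale between sham and 14 days (exact 2-sided permutation test, p = 0.00794, adjusted p = 0.0119 over 12 ratio tests), and that of B2m to H2-D1 fell by 0.82 (exact permutation p = 0.00794, adjusted p = 0.0119). In both cases all 5 arrays at 14 days lay below all 5 sham arrays, and no lower p can be reached with 5 against 5. At 3 days the B2m ratios fell by 0.24 and 0.27 (exact permutation adjusted p = 0.0212 and 0.0381), and these calls ended with quantile normalization, at 0.147 and 0.0952, and without several single arrays. Between 14 days and testosterone the B2m ratios changed by 0.14 and 0.20 (exact permutation adjusted p = 0.278 and 0.0693).

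The ratio of H2-Q10 to H2-K1 fell by 1.66 at 3 days and fell by 2.38 at 14 days against sham, and it was 2.74 higher after testosterone than at 14 days. With H2-D1 as the partner the values were -1.70, -2.46 and 2.80. Groups did not overlap in any of these 6 comparisons (exact permutation p = 0.00794, adjusted p = 0.0119 each). After leaving out the 4 arrays with a high Gapdh ratio, the testosterone comparison rested on 3 arrays against 3 and gave 2.68 and 2.65, with an exact permutation adjusted p of 0.12, since 3 against 3 cannot reach the threshold.

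**Figure D2:**
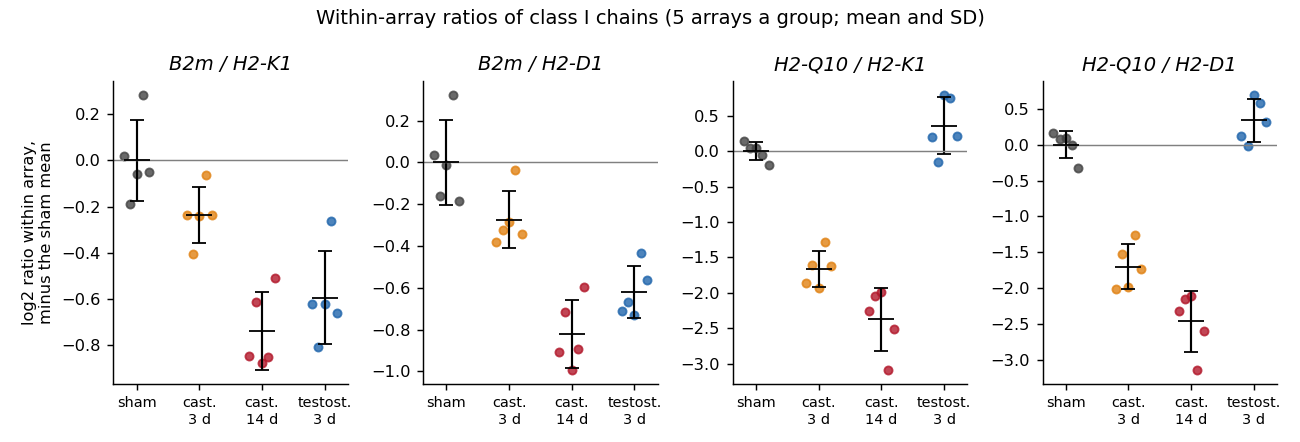
Log2 ratio of 2 genes on the same array, with the mean of the sham arrays subtracted, for B2m over H2-K1 and H2-D1 and for H2-Q10 over H2-K1 and H2-D1. Points are arrays and bars the mean and SD of 5 arrays, and the scale of the vertical axis differs between panels. The B2m ratios lie 0.74 and 0.82 below sham at 14 days, and the H2-Q10 ratios are lowest at 14 days and highest after testosterone.

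The transporter and its partner tapasin form the loading complex. Tap1, a subunit of the transporter, measured 363, 473, 414, 412 and 506 in sham and 611, 579, 589, 618 and 636 at 3 days. It measured 917, 729, 883, 747 and 771 at 14 days and 572, 618, 547, 514 and 503 after testosterone. The first 3 groups rose in steps that did not overlap, and the testosterone arrays lay below all 14-day arrays and overlapped sham by a single pair of arrays. Tap1 rose by 0.48 ± 0.09 (SE) at 3 days (adjusted p = 0.00194) and by 0.89 ± 0.09 (SE) at 14 days (adjusted p = 2.89e-07) on the log2 scale. After testosterone its change from 14 days was -0.54 ± 0.09 (SE) (adjusted p = 0.00011), and it was still above sham by 0.34 ± 0.09 (SE) (adjusted p = 0.00525).

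Tap2, the other subunit, measured 221, 298, 285, 281 and 235 in sham, 317, 312, 322, 285 and 328 at 3 days, 303, 287, 328, 222 and 268 at 14 days and 273, 189, 224, 171 and 217 after testosterone. The groups overlapped in every comparison. It was called once, lower after testosterone than at 14 days (-0.38 ± 0.12 (SE), adjusted p = 0.0152), a call that ended with median centring (adjusted p = 0.224), with quantile normalization (0.168), with a fit of the compared groups alone (0.05 after rounding, not below the threshold) and without replicate 4 of the testosterone group (0.0510). Its changes against sham were 0.24 ± 0.12 (SE) at 3 days, 0.09 ± 0.12 (SE) at 14 days and -0.29 ± 0.12 (SE) after testosterone. The last had an adjusted p of 0.0501 and was called lower in 8 alternatives.

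Tapbp encodes tapasin, which bridges the transporter and the heavy chain. Its brightest probe set measured 1715, 1918, 1870, 1957 and 1930 in sham and 2716, 3040, 2734, 2512 and 2749 at 3 days. It measured 2859, 2690, 2721, 3108 and 3194 at 14 days and 2689, 2266, 2498, 2272 and 2285 after testosterone. All castrated arrays lay above all sham arrays, 3 and 14 days overlapped, and the testosterone arrays lay above sham and, by a narrow margin, below 14 days. The log2 change against sham was 0.55 ± 0.08 (SE) at 3 days (adjusted p = 0.000137) and 0.63 ± 0.08 (SE) at 14 days (adjusted p = 2.36e-06). Testosterone against 14 days gave -0.28 ± 0.08 (SE) (adjusted p = 0.00761), a call that ended with median centring (-0.08, adjusted p = 0.554) and on leaving out the 4 arrays with a high Gapdh ratio (-0.15, adjusted p = 0.227).

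Psmb8 and Psmb9 encode catalytic subunits that replace their constitutive counterparts in the immunoproteasome, and they had the largest rises among the 9 genes at 14 days. Psmb8 measured 447, 688, 568, 406 and 603 in sham and 944, 890, 829, 842 and 893 at 3 days. It measured 2281, 1926, 1612, 2155 and 2100 at 14 days and 1275, 1370, 924, 793 and 1153 after testosterone. Psmb9 measured 233, 302, 236, 221 and 237 in sham, 420, 380, 378, 363 and 358 at 3 days, 1013, 963, 776, 1038 and 1066 at 14 days and 660, 714, 564, 410 and 517 after testosterone. In both genes sham, 3 days and 14 days did not overlap, and the testosterone arrays lay between sham and 14 days without touching either.

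At 14 days Psmb8 was 3.69-fold and Psmb9 3.81-fold the sham level (log2 changes 1.88 ± 0.15 (SE) and 1.93 ± 0.13 (SE), adjusted p = 8.47e-09 and 7.14e-10). The rises at 3 days were 0.71 ± 0.15 (SE) and 0.61 ± 0.13 (SE) (adjusted p = 0.0038 and 0.00337). Testosterone against 14 days gave -0.88 ± 0.15 (SE) and -0.77 ± 0.13 (SE) (adjusted p = 0.000103 and 7.73e-05). Against sham the testosterone group was still 2.01-fold and 2.24-fold higher (adjusted p = 2.52e-05 and 7.06e-07).

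Psmb9 and Tap1 lie head to head, and the bases between their RefSeq starts are shown as a description. A link between this stretch and the signals of the genes was not tested. In Tap1's direction, with the only CCAAT box in capitals, the stretch reads as follows.
Tap1 and Psmb9, chr17:34187331-34187555, plus strand: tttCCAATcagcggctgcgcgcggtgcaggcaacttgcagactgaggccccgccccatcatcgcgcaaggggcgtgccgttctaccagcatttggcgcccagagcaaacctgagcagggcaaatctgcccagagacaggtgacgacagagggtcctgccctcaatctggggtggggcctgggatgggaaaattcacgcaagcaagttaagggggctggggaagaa
It held no other motif of those listed. Over the 20 arrays the log2 signals of Tap1 and Psmb9 correlated with r = 0.85, those of Psmb8 and Psmb9 with r = 0.98 and those of H2-K1 and H2-D1 with r = 0.94. B2m correlated with H2-K1 at r = -0.02 and with Tap1 at r = -0.75. These coefficients describe 20 arrays that share 4 group means.

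Counted over the 9 genes, 3 days of castration raised 4 (Tap1, Tapbp, Psmb8, Psmb9) and lowered 1 (H2-Q10), where 9.84% of the 6913 probe sets were called higher and 4.46% lower. The members' median log2 change was 0.24 and that of all 5371 genes 0.04. The arrays of the groups did not overlap for 6 of the 9, against 13.3% of probe sets. At 14 days 6 were higher and 2 lower (B2m and H2-Q10), against 28.6% and 24.3% of all probe sets, with medians of 0.43 and 0.04, and 7 of 9 against 35% did not overlap. Of the 7 genes other than B2m and H2-Q10, 6 were higher and Tap2 was not called. B2m and H2-Q10 were set apart with earlier results of these data known, so this split is a description and no test. From 3 to 14 days 5 were higher and 0 lower, against 20.2% and 20.4%, with medians of 0.36 and 0.00, and 4 of 9 against 32.4% did not overlap. In 2 alternatives H2-Q10 was called lower as well.

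Testosterone against 14 days gave 2 higher (B2m and H2-Q10) and 5 lower (Tap1, Tap2, Tapbp, Psmb8, Psmb9), against 18.2% and 26.6% of all probe sets, with medians of -0.28 for the members and -0.11 for all genes, and 5 of 9 against 30.7% did not overlap. This comparison depended on scaling: median centring moved the median of all probe sets from -0.10 to 0.09 and turned 1259 higher and 1840 lower probe sets into 1827 and 1024. Relative to the median of all probe sets, then, falls of the size seen in Tapbp or Tap2 are smaller than they appear. With that centring 4 members were higher and 3 lower. Against sham the testosterone group had 7 higher and 0 lower, against 23.5% and 29.5%, with B2m and Tap2 not called, and 6 of 9 against 31.4% did not overlap. There the centring turned 1624 higher and 2041 lower probe sets into 2026 and 1206 and moved the median from -0.09 to 0.08. The comparisons share groups of arrays and are not independent of each other.

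**Figure D3:**
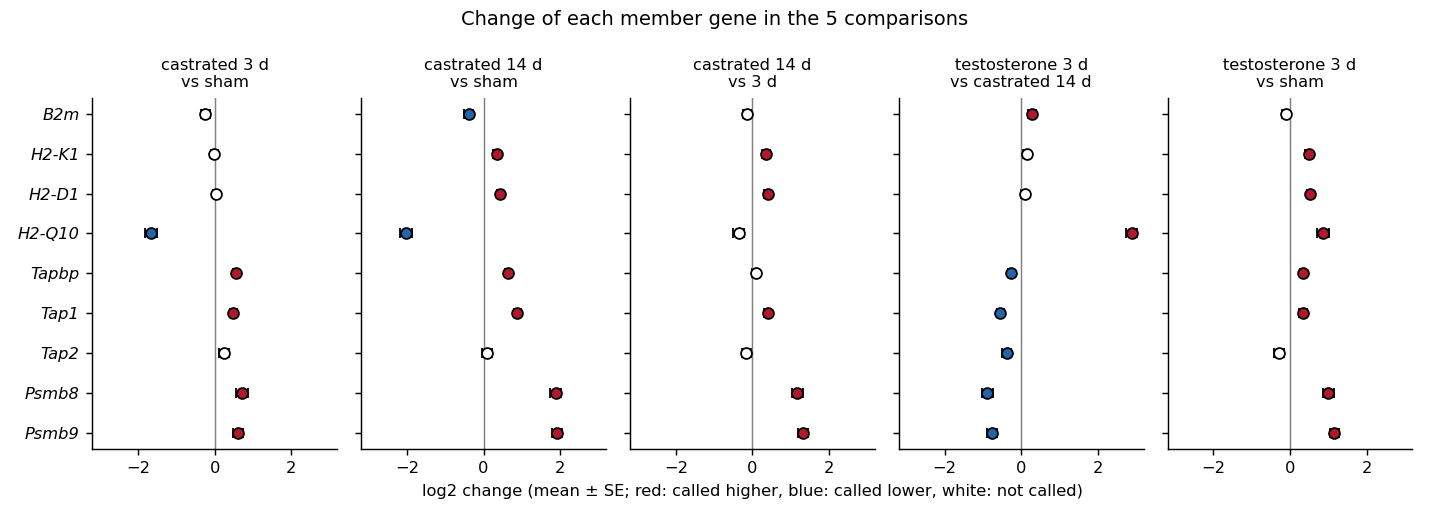
Log2 change and SE of the 9 genes in the 5 comparisons, with red for called higher, blue for called lower and white for not called. B2m and H2-Q10 are the genes below 0 at 14 days against sham and the called genes above 0 in testosterone against 14 days.

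Other probe sets of the same genes gave a check on identity, since heavy chain genes share much of their sequence and such probe sets (the suffix f marks a sequence family) may also bind transcripts of related genes. For H2-K1, probe set 97125_f_at changed by 0.79 ± 0.10 (SE) at 14 days against sham, a larger rise than the 0.35 of the brightest one, 93120_f_at. For H2-D1, probe sets 101886_f_at and 97541_f_at changed by 0.59 ± 0.10 (SE) and 1.03 ± 0.13 (SE) against the 0.43 of 97540_f_at. All of these were called higher at 14 days and after testosterone against sham, and none was called at 3 days. The size of the heavy chain rise therefore differed up to 1.03 against 0.43 between probe sets of 1 gene, and assignment to H2-K1 or H2-D1 alone is uncertain. Another H2-K1 probe set, 97700_at (78.4 to 262), and a second one of Tap1, 162278_r_at (8.5 to 143), did not pass the filter. H2-Q10 was read by 1 probe set, 101898_s_at, so its changes had no such check. Whether that probe set also binds transcripts of related genes was not examined.

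The Tapbp probe sets disagreed. While 100154_at rose, 162104_f_at changed by -0.04 ± 0.16 (SE) at 3 days and 0.06 ± 0.16 (SE) at 14 days. Probe set 102689_at measured 165 to 251 on the 4 arrays with a high Gapdh ratio and 488 to 1332 on the other 16. Its changes against sham were 0.20, -0.88 and -0.69 ± 0.51 (SE) at 3 days, 14 days and after testosterone, and none was called. The rise of Tapbp rests on 1 of its 3 probe sets.

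**Figure D4:**
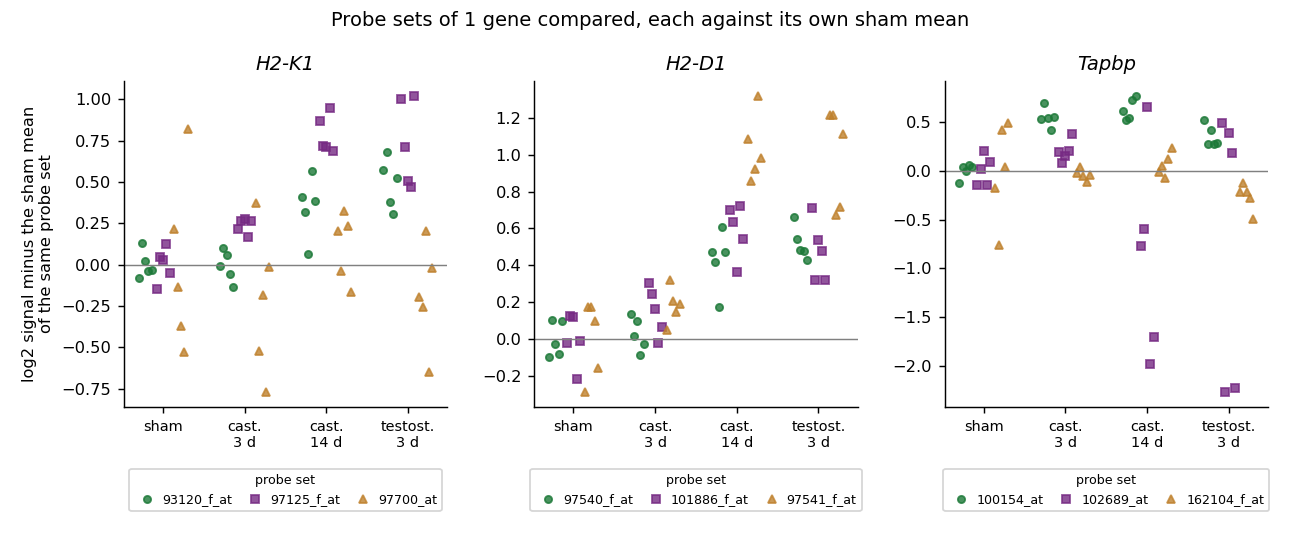
Log2 signal of each probe set of H2-K1, H2-D1 and Tapbp, with the sham mean of that probe set subtracted, 1 point per array by group. The heavy chain probe sets that passed the filter lie above 0 at 14 days and after testosterone, and the Tapbp probe set 102689_at drops to the lowest values on the 4 arrays with a high Gapdh ratio.

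Among 8 tested class I heavy chain genes outside the 9, 4 were called higher at 14 days against sham and 0 lower: H2-M3 (1.62), which presents formylated peptides, H2-Q4 (1.17), H2-K2 (0.98) and H2-Q1 (0.51). At 3 days H2-M3 alone was called (0.97). After testosterone H2-M3 (-0.59) and H2-Q1 (-0.35) were lower than at 14 days. None was called lower than sham in any comparison with it. Counts in this and the later lists stand beside the shares of all 6913 probe sets. At 3 days against sham 9.84% were called higher and 4.46% lower, and at 14 days 28.6% and 24.3%. Testosterone against 14 days gave 18.2% and 26.6%, and testosterone against sham 23.5% and 29.5%. Of 3 tested class I-like genes, Azgp1, which encodes the secreted zinc-alpha-2-glycoprotein, fell by 2.58 at 14 days and was 1.65 higher after testosterone than at 14 days. Azgp1 was not called at 3 days, and the difference of its course from that of H2-Q10 was not tested.

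Of 7 further tested proteasome genes, 2 rose at 3 days, Psme1 (0.67), a subunit of the activator PA28, and Psmb10 (0.65), the remaining catalytic subunit of the immunoproteasome. At 14 days 4 were higher and 1 lower. Psmb10 rose by 1.68 (adjusted p = 3.30e-09), Psme1 by 1.54, the assembly factor Pomp by 0.91 and the constitutive subunit Psmb6 by 0.90, while Psme3, a subunit of the nuclear activator PA28 gamma, fell by 0.94. Psmb5, the constitutive counterpart of Psmb8, changed by 0.19 ± 0.13 (SE) at 14 days and was not called. After testosterone Psmb10 (-1.02) and Psme1 (-0.48) fell against 14 days and Psme3, Psmb5 and Psmb7 rose, by 0.43, 0.41 and 0.39.

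General factors of the endoplasmic reticulum also serve class I loading. Of 6 tested, 0 were called at 3 days, and 5 were lower and 0 higher at 14 days, among them the translocon subunit Sec61a1 (-1.28), the chaperone Hspa5 (-1.13), the folding sensor Uggt1 (-0.99) and Sec61b (-0.90). Canx, a lectin chaperone, changed by 0.01 ± 0.12 (SE) there and was not called. After testosterone 4 were higher than at 14 days, led by Hspa5 (1.05) and Pdia3 (1.03), a disulfide isomerase of the loading complex, and 1 was lower, Canx (-0.41). Uggt1 changed by -0.24 ± 0.18 (SE) between these groups and was not called. Of 5 cytosolic peptidases, which trim or destroy peptides, 3 were lower at 14 days, Thop1 (-1.54), Lap3 (-0.77) and Ide (-0.50), and 0 were higher.

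Among 19 tested regulators of class I transcription and interferon signalling, 2 rose at 3 days, the kinases Jak1 (0.51) and Jak2 (0.48). That share was near the 9.84% of all probe sets. At 14 days 12 rose and 0 fell, against 28.6% and 24.3%. The largest were the interferon receptor chain Ifnar2 (1.29), the NF-kappa B subunit Relb (0.85) and the interferon regulatory factors Irf1 (0.84) and Irf9 (0.77). From 14 days to testosterone 10 fell and 0 rose, with Relb at -1.35, Irf1 at -1.02, Irf8 at -0.98 and Irf9 at -0.95. Against sham the testosterone group had 3 higher (Ifnar2 at 0.89, Nfyc at 0.37 and Jak2 at 0.31) and 3 lower (Rela at -0.64, Rfxank at -0.51 and Irf8 at -0.39), and 13 were not called. Of all probe sets 23.5% were higher and 29.5% lower there, so neither count exceeded that background.

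Several lists of leukocyte genes were read beside these results. Of 6 tested MHC class II genes 5 rose at 3 days, all 6 rose at 14 days (H2-Ab1 by 3.10) and all 6 fell after testosterone against 14 days. Of 15 macrophage and myeloid markers on the array 10 were tested, of which 8 rose at 3 days, 9 at 14 days and all 10 fell after testosterone against 14 days. The summed signal of the 15 was 3664 to 5010 in sham, 8309 to 10160 at 3 days, 14960 to 23010 at 14 days and 7081 to 9849 after testosterone, with no marker at 0. The summed signal of 15 lymphocyte and natural killer markers, 5 of them tested, was 1425 to 2043, 1766 to 2379, 2606 to 6652 and 1391 to 2053, again with none at 0. At 3 days 0 of these 5 were called (Ighm at 0.80, adjusted p = 0.108 from limma), and at 14 days 2 were higher against sham, Ighm (2.35), an immunoglobulin heavy chain with a mean of 2389 ± 1662 (SD, n = 5), and Gzmb (1.25), a granzyme of killer cells, and 1 was lower, the B cell gene Ms4a1 (-0.75). The median of the 5 was -0.65, and after testosterone Ms4a1 was higher than at 14 days (0.51) and Ighm and Gzmb were lower.

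Of 6 tested general leukocyte markers, 3 were higher and 1 lower at 3 days, 4 higher and 1 lower at 14 days, and 1 higher and 5 lower in testosterone against 14 days. The exception each time was Cd52 (-2.29, -1.33 and 2.03), and Rac2 was not called at 3 or 14 days. Over the 8 markers of this list on the array the summed signal was 5348 to 10027 in sham, 3265 to 4064 at 3 days, 5390 to 7717 at 14 days and 9425 to 12909 after testosterone, with none at 0. This sum was lowest at 3 days and highest after testosterone, the direction of Cd52. The other called markers moved the opposite way, so the sum is no measure of leukocyte content. Ptprc, which encodes the leukocyte antigen CD45, averaged 27.0, 63.8, 257 and 82.3 in the same order. Of 7 endothelial markers 4 were tested, of which 1 rose at 3 days, 3 rose at 14 days and 3 fell after testosterone against 14 days, with summed signals of 581 to 996, 860 to 1619, 1782 to 2373 and 912 to 1195 and none at 0. Of 6 tested fibroblast markers 4 rose and 0 fell at 3 days and again at 14 days, and 3 were higher and 2 lower in testosterone against 14 days. Over 7 fibroblast markers the summed signals were 13098 to 14500, 17594 to 21087, 18243 to 25016 and 17581 to 23577. Of 7 tested epithelial markers 2 rose and 0 fell at 3 days, and 4 rose and 1 fell at 14 days. The part of all these cell markers in the rise of Tap1, Tapbp, Psmb8, Psmb9 and the heavy chains was not tested.

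The genes whose log2 signals over the 20 arrays were most like those of a member were taken from the other tested genes. For Tap1 they were Lum (r = 0.95), a stromal proteoglycan, Serping1 (0.94), an inhibitor of complement, Csf1r (0.94), the macrophage growth factor receptor, Apbb1ip (0.93) and Fyn (0.93). For H2-Q10 they were Apof (0.96), an apolipoprotein, Fkbp5 (0.95), a known androgen target, the secretory pathway genes Ssr3 (0.93) and Sec13 (0.92), and Defb2 (0.92), a defensin. For B2m they were Gnas (0.83), the ribosomal genes Rpl6 (0.82) and Rpl41 (0.80), Stx3 (0.80) and Grhpr (0.80). In sham, 3 days, 14 days and testosterone B2m averaged 14610, 12300, 11230 and 13595. Gnas averaged 14033, 12528, 10870 and 12882, Rpl6 12605, 11319, 10214 and 12024, and Rpl41 23326, 19425, 18618 and 23398. Stx3 and Grhpr were dimmer, at 1116 and 1545 in sham. Whether B2m shared its course with bright probe sets in general was not tested. For H2-K1 they were H2-K2 (0.94), another heavy chain gene, Acyp1 (0.93), Atp5mpl (0.93), Atp5md (0.92) and Snrpg (0.92). H2-K1 and H2-K2 were both read by family probe sets, which may bind the same transcripts. The coefficients describe arrays that share group means and carry no test.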

How the data were processed

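MG-U74A arrays of 20 prostates were analysed from a table of signals. Per the submitters' processing notes the authors used MAS5 (version 5.0), and the deposited intensities are linear signals with a near-equal trimmed mean on all arrays; no build, batch or replicate number is given in the sources used here, and replicates were numbered by order. Symbols come from the platform annotation: 10833 probe sets carry 1 symbol, 396 several and 1193 none, and those with several or none were not named. From these intensities log2(signal + 12.7) was computed, with the 10th percentile as the pseudocount. Probe sets above 190.8, the median, on at least 5 of 20 arrays were tested (6913, 55.7%). limma 3.58.1 in R 4.3.3 fitted the 4 groups in 1 model with equal array weights, 5 contrasts, empirical Bayes and Benjamini-Hochberg adjustment, threshold 0.05. Within-array ratios were compared by exact 2-sided permutation tests, adjusted over 12. Code was tested on simulated data.

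The members, the lists of related genes and markers, and the tests were chosen with earlier results of these data known. All 9 members are named, with up to 4 called genes of largest change per list and comparison, and the 5 most correlated genes for B2m, H2-Q10, Tap1 and H2-K1. Genes named beyond that rule (Psmb5, Psmb7, Canx and Uggt1 where not called, Nfyc and Jak2 after testosterone, Cd52 at 14 days, Rac2) were chosen after their values were seen. Alternatives were other pseudocounts, filters, scalings, array weights, fits of the compared groups alone, other probe sets, the 4 arrays with a high Gapdh ratio left out, and each array left out in turn. The number of arrays limits the precision.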

Additional observations from a re-analysis of the deposited data

Results flagged for a closer look

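Among 64 groups of 5 arrays, formed by the 16 probe sets and 4 conditions, 2 held an array that stood apart, the gap to its nearest neighbour being more than 0.71 of the group's range. Chance alone flags about 1 in 20 such groups. B2m in sham replicate 4 measured 17264, where the nearest sham array was at 14161 and the lowest at 13712, a gap of 0.873 of the range. Without that array the fall of B2m at 14 days kept its direction and its call. Psmb9 in sham replicate 2 measured 302.0, where the nearest array was at 237 and the lowest at 221, a gap of 0.8 of the range. That array was below every castrated array of Psmb9.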

How the results depend on the processing

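In 29 alternatives each, the calls of H2-Q10, Tap1, Psmb8 and Psmb9 that the main analysis made kept their direction and their side of the threshold, as did the fall of B2m at 14 days against sham (-0.52 to -0.22, adjusted p up to 0.0310). The number of members called lower from 3 to 14 days went from 0 to 1 with median centring and ranged from 0 to 1 with single arrays left out. For testosterone against 14 days, the number called higher went from 2 to 1 with a fit of the compared groups alone, with no filter and with quantile normalization, to 4 with median centring, and ranged from 1 to 2 with single arrays left out. The number called lower there went from 5 to 3 with median centring. For testosterone against sham, the number called lower went from 0 to 1 (Tap2) with a pseudocount of 1, a filter on the mean and array weights, and ranged from 0 to 1 with single arrays left out. H2-K1 from 3 to 14 days lost its call with median centring (0.33, adjusted p = 0.0552).

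With other probe sets, Tapbp reversed: 162104_f_at gave -0.0406 at 3 days and -0.27 after testosterone, both against sham, and 102689_at gave -0.88 at 14 days and -0.69 after testosterone against sham and 0.19 in testosterone against 14 days. The other probe sets of the heavy chains also turned the sign of uncalled changes: in testosterone against 14 days 97125_f_at gave -0.04 where H2-K1 had 0.15, and 101886_f_at and 97541_f_at gave -0.12 and -0.05 where H2-D1 had 0.09. At 3 days 97125_f_at gave 0.24 where H2-K1 had -0.01; its 3-day arrays all lay above sham, and it was not called. With quantile normalization the ratio of B2m to H2-K1 at 3 days was -0.19 and that of B2m to H2-D1 -0.26, neither called, and the latter was called in testosterone against 14 days (0.30, adjusted p = 0.0106). After leaving out the 4 arrays with a high Gapdh ratio, the ratios of H2-Q10 to H2-K1 and H2-D1 in testosterone against 14 days were 2.68 and 2.65, not called because 3 arrays against 3 cannot pass. With single arrays left out the ratio of B2m to H2-K1 at 3 days was -0.28 to -0.17, that of B2m to H2-D1 -0.33 to -0.19, and that of B2m to H2-D1 in testosterone against 14 days 0.15 to 0.26, with 8, 7 and 1 of the settings changing the call. The causes of these changes were not tested. No paired analysis was possible because the labels give the arrays no replicate numbers shared between groups.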

Other observations

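Among the class I-like genes, Hfe, whose product pairs with beta-2-microglobulin and is known for its role in iron balance, moved opposite to B2m. Its log2 signal rose by 0.75 at 3 days (adjusted p = 1.46e-05) and by 0.90 at 14 days (adjusted p = 9.45e-08), both against sham, and changed by -0.69 in testosterone against 14 days (adjusted p = 3.60e-06), all from limma. Mr1, which presents vitamin metabolites to a class of T cells, was called lower at 14 days than at 3 days (-0.53, adjusted p = 0.00264). No explanation of these values was tested.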
